A study of Mus musculus with 7 samples.

Results

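The comparison described here is that of open chromatin in Hoxb1-GFP-positive (GFP+) cells and in the GFP-negative (GFP-) cells of the same mouse line. Both populations came from the second heart field (SHF) region of E9.5 embryos, which was dissected, pooled, digested and sorted by flow cytometry. The line carries GFP at the Hoxb1 locus (Hoxb1GFP), so the GFP- cells carry the allele as well, and the embryos' zygosity is not given in the sources used here. In the study's methods the Hoxb1GFP allele is also written Hoxb1-, and C57Bl/6J is the mouse strain listed, without a statement of which embryos carried that background. Each population is represented by 2 ATAC-seq libraries, GFP- 1 and GFP- 2 and GFP+ 3 and GFP+ 4, out of 7 libraries in the series. The other 3 libraries, Tomato+ 6, Tomato+ 8 and Tomato- 7, came from Mef2c-Cre;RosatdT embryos of the same stage and are used below as an outside readout. The GFP- population is defined only by lack of GFP, and it may hold every other cell type of the dissected region. Whether the GFP- and GFP+ cells of the libraries came from the same pool of embryos is not given.

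Peaks with a -log10 q-value of at least 2 were merged over the 4 lists wherever they shared 1 bp, which gave 149396 regions. Of these, 3314 were held by both GFP+ lists and by neither GFP- list (GFP+ only), which is 2.22% of the merged regions. A further 3031 were held by both GFP- lists and by neither GFP+ list (GFP- only), which is 2.03%. At least 1 list of each population held 45609 regions, among which 27251 were in all 4 lists, and the remaining 97442 were found in a single list. The libraries contributed between 65086 and 72289 peaks each, and the tag totals recovered from the peak values ran from 59.4 M in GFP+ 3 to 76.8 M in GFP+ 4, with 76.2 M in GFP- 1 and 68.8 M in GFP- 2. With 2 libraries against 2, an exact two-sided permutation test cannot go below p = 0.333, so the classes are given as counts, and the spread between libraries is that of pooled samples whose independence the labels do not state.

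In ATAC-seq a transposase cuts accessible DNA, so a peak marks a promoter, enhancer or insulator that is open in a large enough share of the cells. The SHF is the pool of cardiac progenitors that adds cells to both poles of the heart tube. Its posterior part, which feeds the venous pole and the atria, expresses Hoxb1, a homeodomain factor that binds DNA together with the TALE cofactors PBX and MEIS.

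The sequences of the strongest regions of each class are shown first because the classes differ in the short strings these windows hold. Each window covers 201 bases around the summit on the plus strand of GRCm38, in regions whose 31-mers have a median of 1 copy in the genome, and was chosen from the 5 regions of the class with the highest fold enrichment in the lower of its libraries. Capitals mark matches, on either strand, to the strings of 5 factor families and to the CTCF motif. The string is TGATNNAT for HOX factors paired with PBX and TGACAG for MEIS factors. That of TEAD factors is GGAATG and that of GATA factors AGATAA, while SOX factors are given by ACAAAG. A match describes the letters and is not a measured binding site.

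The 3 GFP+ only windows lie in an intron 1600 bp from the TSS nearest to it, that of Ifi202b (chr1:173981144-173981344), in an intron near Ube2cbp (chr9:86449729-86449929), and between genes near Gm33251 (chr15:40007868-40008068):
Ifi202b: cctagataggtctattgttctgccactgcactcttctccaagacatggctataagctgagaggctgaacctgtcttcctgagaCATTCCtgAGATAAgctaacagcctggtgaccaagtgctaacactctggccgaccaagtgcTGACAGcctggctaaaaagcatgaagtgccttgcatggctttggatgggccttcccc
Ube2cbp: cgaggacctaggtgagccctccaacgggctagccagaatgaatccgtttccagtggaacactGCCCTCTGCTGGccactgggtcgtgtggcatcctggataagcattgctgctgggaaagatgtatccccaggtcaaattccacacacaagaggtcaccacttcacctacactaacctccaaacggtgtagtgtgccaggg
Gm33251: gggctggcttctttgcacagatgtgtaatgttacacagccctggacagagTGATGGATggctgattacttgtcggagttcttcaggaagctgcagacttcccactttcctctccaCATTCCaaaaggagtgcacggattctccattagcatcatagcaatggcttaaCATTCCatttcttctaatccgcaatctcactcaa

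Fold enrichment over the local background was 7.68 in GFP+ 3 and 6.66 in GFP+ 4 at the Ifi202b window. It was 5.92 and 5.83 at Ube2cbp, and 6.02 and 5.75 at Gm33251. None of the 3 windows holds a SOX string, whereas the Ube2cbp window holds a CTCF match and the Gm33251 window a HOX-PBX string and 2 TEAD strings. The remaining regions of this set lie near Jag1, a Notch ligand, at 6.72 and 5.75, and near A730020M07Rik at 8.07 and 5.75. All 5 had a peak in Tomato+ 6 as well, 3 in Tomato- 7 and 2 in Tomato+ 8.

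The 3 GFP- only windows all lie between genes, at a distance of more than 100 kb from the nearest TSS, which belongs to 1700003H04Rik (chr3:124986673-124986873), Gm4710 (chr17:76111961-76112161) and 1700017G19Rik (chr3:40123860-40124060):
1700003H04Rik: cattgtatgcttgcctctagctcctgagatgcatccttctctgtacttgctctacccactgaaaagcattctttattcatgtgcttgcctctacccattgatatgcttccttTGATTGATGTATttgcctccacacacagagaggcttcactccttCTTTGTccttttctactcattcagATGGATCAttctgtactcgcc
Gm4710: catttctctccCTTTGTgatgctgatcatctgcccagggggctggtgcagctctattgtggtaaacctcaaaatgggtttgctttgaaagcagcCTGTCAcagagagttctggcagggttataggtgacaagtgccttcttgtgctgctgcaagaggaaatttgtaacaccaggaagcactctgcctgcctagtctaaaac
1700017G19Rik: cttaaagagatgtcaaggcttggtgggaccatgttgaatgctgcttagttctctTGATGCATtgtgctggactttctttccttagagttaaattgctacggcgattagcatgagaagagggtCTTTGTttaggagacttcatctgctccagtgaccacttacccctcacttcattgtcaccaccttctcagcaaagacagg

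Fold enrichment was 6.54 in GFP- 1 and 7.33 in GFP- 2 at the 1700003H04Rik window. The values were 7.05 and 6.51 at Gm4710, and 6.80 and 6.51 at 1700017G19Rik. Each of these windows holds 1 SOX string, and over the 5 strongest regions of the class 4 held one, against 0 of the 5 strongest GFP+ only regions. Besides, the 1700003H04Rik window holds 3 HOX-PBX strings. The other two of the set lay in an intron of Dok6, at 7.05 in GFP- 1 and 7.33 in GFP- 2, and in an intron at the promoter of Mtus1, at 6.29 and 8.41, which holds no SOX string. None of the 5 strongest GFP- only regions had a peak in Tomato+ 6, against 4 in Tomato+ 8 and 2 in Tomato- 7.

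These leading regions were strong for their class, whose members were weak as a group. The median fold enrichment in the lower of the class's own libraries was 3.31 for GFP+ only and 3.27 for GFP- only regions, compared with 4.65 in the lowest of the 4 libraries for regions in all 4 lists. The lower -log10 q-value was under 4 in 2905 GFP+ only regions (87.7%) and in 2502 GFP- only regions (82.5%). Weak signal in the other population was common, as 63.4% of GFP+ only and 65.8% of GFP- only regions overlapped a weaker deposited peak in at least 1 library of the other population. At the edge, the weakest member had a -log10 q-value of 2.002, and the strongest peak of the other population that was left out reached 1.9995. With a -log10 q-value of at least 4 for presence and absence alike, the classes had 1462 GFP+ only and 1564 GFP- only regions. No deposited peak of any strength was found in the other population at 1212 GFP+ only and 1036 GFP- only regions.

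Library pairs of the same population shared more exclusive regions than pairs that crossed populations. The pair GFP+ 3 and GFP+ 4 held 3314 regions that the other lists lacked and the pair GFP- 1 and GFP- 2 held 3031, whereas the 4 pairs of 1 GFP+ and 1 GFP- list held between 2116 and 2488. These 9248 regions of the mixed pairs serve below as a comparison group, since they were also found in exactly 2 lists. Regions in exactly 3 lists numbered 2039 to 2524 for each of the 4 combinations.

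**Figure D1:**
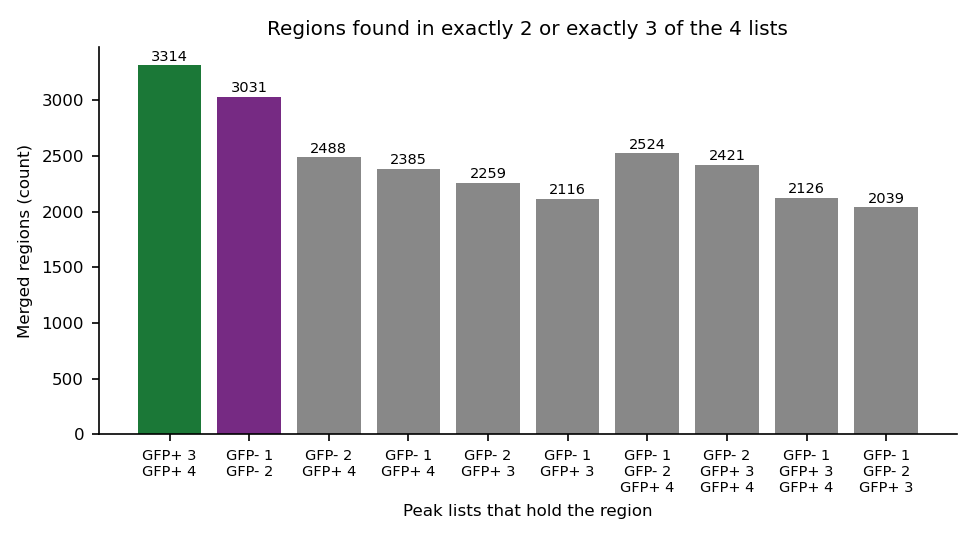
Number of merged regions (y axis) held by exactly 2 or exactly 3 of the 4 peak lists (x axis, the libraries named under each bar). The GFP+ only bar (green, 3314) and the GFP- only bar (purple, 3031) stand above each of the 4 mixed pairs, the highest of which is 2488.

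Members of both classes were mostly distal. A promoter, taken as 1000 bp upstream to 100 bp downstream of a curated RefSeq TSS, was overlapped by 261 GFP+ only regions (7.88%, 95% Wilson interval 7.01 to 8.84) and by 154 GFP- only regions (5.08%, 4.35 to 5.92). The mixed pairs ranged from 5.58% to 9.24%, all merged regions stood at 11.6% and regions in all 4 lists at 43.3%. Only the GFP- only share thus fell outside the spread of the mixed pairs, by being lower, and its interval reached into that spread. At a -log10 q-value of at least 4 the shares were 20.9% for GFP+ only and 8.89% for GFP- only regions. Median distance to the nearest TSS was 24.9 kb for GFP+ only, 32.7 kb for GFP- only and 24.0 kb for the mixed pairs. Median widths were close, at 256 bp, 253 bp and 235 bp, against 567 bp for regions in all 4 lists. Repeats made up less of the GFP+ only class, in which 20.3% of regions were at least 50% soft-masked, than of the GFP- only class, at 27.5%, while the mixed pairs ranged from 24.0% to 35.3%. Chromosome Y held 11 GFP+ only (0.332%) and 45 GFP- only regions (1.48%). The share on Y was 0.695% for all merged regions and ranged from 0.563% to 1.47% for the mixed pairs. Peaks on Y numbered 740 in GFP- 1, 661 in GFP- 2, 589 in GFP+ 3 and 572 in GFP+ 4, and the sex of the pooled embryos is not given.

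The promoter of Hoxb1 itself did not separate the populations. A promoter region of Hoxb1 (chr11:96365516-96365890) was held by all 4 lists, with fold enrichments of 3.28 in GFP- 1, 3.71 in GFP- 2, 3.73 in GFP+ 3 and 2.88 in GFP+ 4, so the populations overlapped. Of the 12 regions within 100 kb whose nearest TSS was that of Hoxb1, 1 was GFP+ only and 0 were GFP- only. That region (chr11:96397110-96397588) lies between genes 31.8 kb from the TSS, downstream of the gene, with fold enrichments of 3.30 in GFP+ 3 and 3.95 in GFP+ 4. Neither GFP- list held a peak of any strength there.

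GFP+ only regions outnumbered GFP- only regions near the genes of 5 of 12 lists, all of them of heart progenitors, heart muscle, epicardium or vessels, but the counts were small. Over all genes, 2.19% of regions within 100 kb of their nearest TSS were GFP+ only and 1.86% were GFP- only. For the cardiomyocyte list the counts were 5 and 1 of 74 regions, and for proepicardium and mesothelium 4 and 0 of 78. The anterior SHF list had 5 GFP+ only and 2 GFP- only among 109 regions, and the endothelial list 5 and 3 of 143. The posterior SHF list, which includes Hoxb1, had 3 and 2 of 109 regions and was thus near the share of all genes in both directions. No test was run on these counts.

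Among cardiomyocyte genes, the GFP+ only regions lay at Nppa and Actc1, near Tnnt2 and, in a pair, near Tnni1. The promoter of Nppa, which encodes atrial natriuretic peptide, held a GFP+ only region (chr4:148000266-148000375) at 3.15 in GFP+ 3 and 3.47 in GFP+ 4, with no deposited peak in either GFP- list. At Actc1, the cardiac alpha-actin gene, a region in an exon at the TSS (chr2:114052764-114053159) stood at 3.47 and 4.67, and weaker peaks under the q-value threshold were present in both GFP- lists. A region in an intron of Tnnt2, the cardiac troponin T gene (chr1:135850855-135851172), stood at 3.04 and 3.23 with no peak of any strength in GFP-. Most genes of the list had no promoter peak, with 11 and 12 of 15 lacking one in the GFP- lists and 9 in each GFP+ list. The GFP- only region of the list lay in an intron, with Ttn, the titin gene, as its nearest TSS.

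The proepicardial GFP+ only regions lay near Tcf21, Tbx18, Wt1 and Gata5, which encode transcription factors of epicardial and splanchnic mesoderm. Tcf21 had a region 6.64 kb from its TSS (chr10:22813447-22813869) at 3.52 in GFP+ 3 and 3.47 in GFP+ 4, with a weaker peak in GFP- 2. Tbx18, which marks the sinus venosus and is also on the posterior SHF list, had a region upstream (chr9:87740322-87740533) at 3.75 and 4.02. Weaker peaks were present in both GFP- lists at that region. The promoter of Foxf1, a forkhead factor of splanchnic mesoderm on the posterior SHF list, held a GFP+ only region (chr8:121084112-121084413) at 3.04 and 2.68, close to the threshold, with weaker peaks in both GFP- lists. The GFP+ only regions of the anterior SHF list included 2 near Eya1 and others near Hand2 and Tbx1. Of the Eya1 regions 1 lies in sequence with 8 copies of its 31-mers and the other is soft-masked throughout, and Tbx1 also had a GFP- only region (chr16:18552480-18552690), so it was touched by both classes. Sema6d, also on the anterior list, had a GFP- only region in an intron (chr2:124613722-124614036), at 3.45 in GFP- 1 and 3.42 in GFP- 2. Both GFP+ lists held weaker peaks at the Sema6d region. The GFP- only regions of the posterior SHF list included 1 at the promoter of Gata4 (chr14:63245688-63246041), at 3.07 and 3.09. It was close to the threshold, with weaker peaks in both GFP+ lists. Another promoter region of Gata4 (chr14:63245122-63245662) was in all 4 lists. Endothelial genes with a GFP+ only region were Tek, Sox18, Egfl7, Icam2 and Erg, and the Erg region lies in sequence repeated 769 times. The GFP- only regions of the endothelial list lay near Cdh5, Tie1 and Sox17. Fold enrichment in GFP- 1 and GFP- 2 was 4.28 and 6.24 near Cdh5 and 5.79 and 4.07 near Tie1. The Sox17 region lies in sequence with 12598 copies.

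The excess of GFP- only over GFP+ only regions was largest for the neural tube and the blood list. The neural tube list had 6 GFP- only and 3 GFP+ only among 139 regions, and the primitive erythroid and blood list 3 and 0 of 47. Olig2, a bHLH factor of ventral neural progenitors, accounted for 3 of the 6. One of them lies in its promoter (chr16:91225257-91225459), at 3.33 in GFP- 1 and 3.04 in GFP- 2, and another 32.7 kb upstream (chr16:91192683-91193352), at 4.01 and 4.41. The latter and another region, in an exon, had no peak of any strength in GFP+. At the Olig2 promoter region, weaker peaks were present in both GFP+ lists. Neurog2, a proneural factor, had a GFP- only region 20.2 kb from its TSS (chr3:127653135-127653497) at 5.79 and 3.80, and Pax6 and Sox2 had 1 each. The GFP+ only regions of the list were near Dbx1, Sox2 and Sox3, so Sox2 was touched by both classes.

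Of the blood regions, 2 lay at the promoters of Tal1 and Nfe2. Tal1, which specifies hematopoietic cells, had a region (chr4:115056455-115057022) at 3.21 in GFP- 1 and 3.28 in GFP- 2, with weaker peaks in both GFP+ lists. Nfe2, an erythroid and megakaryocyte factor, had one (chr15:103258342-103258766) at 4.30 and 3.71, beside another promoter region of the gene that was in all 4 lists. In that other region both GFP+ libraries ranked above both GFP- libraries. At the GFP- only region of Nfe2, GFP+ 4 held a weaker peak. Promoters of the blood list had peaks for 7 genes in GFP- 1, 3 in GFP- 2, 4 in GFP+ 3 and 5 in GFP+ 4, so that the populations overlapped, and defining genes such as Gata1, Klf1, Hbb-y and Hbb-bh1 had none in any of the 4 lists.

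The other lists were balanced or tilted weakly. For the anterior Hox genes and TALE cofactors, 4 of 94 regions were GFP- only, of which 2 lay in introns of Meis1, 1 in an intron of Meis2 and 1 at the promoter of Hoxa2 (chr6:52165075-52165299), and 2 were GFP+ only, near Hoxb1 and Meis2. Both GFP+ lists held weaker peaks at the Hoxa2 region. Neural crest had 3 of each among 109 regions, and foregut and pharyngeal endoderm 2 of each among 113. Somite and head muscle had 2 GFP+ only and 3 GFP- only among 114, and housekeeping genes 0 and 1 among 64. At promoters, 272 of 26180 genes with a curated TSS had a GFP+ only region (1.04%) and 158 had a GFP- only region (0.604%). On the lists these were Actc1, Nppa, Foxf1, Sox18 and Dlx2 for GFP+ only, and Olig2, Tal1, Nfe2, Hoxa2, Gata4, Tfap2a and Polr2a for GFP- only. Of the latter, Nfe2, Gata4 and Polr2a also had a promoter region in all 4 lists.

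**Figure D2:**
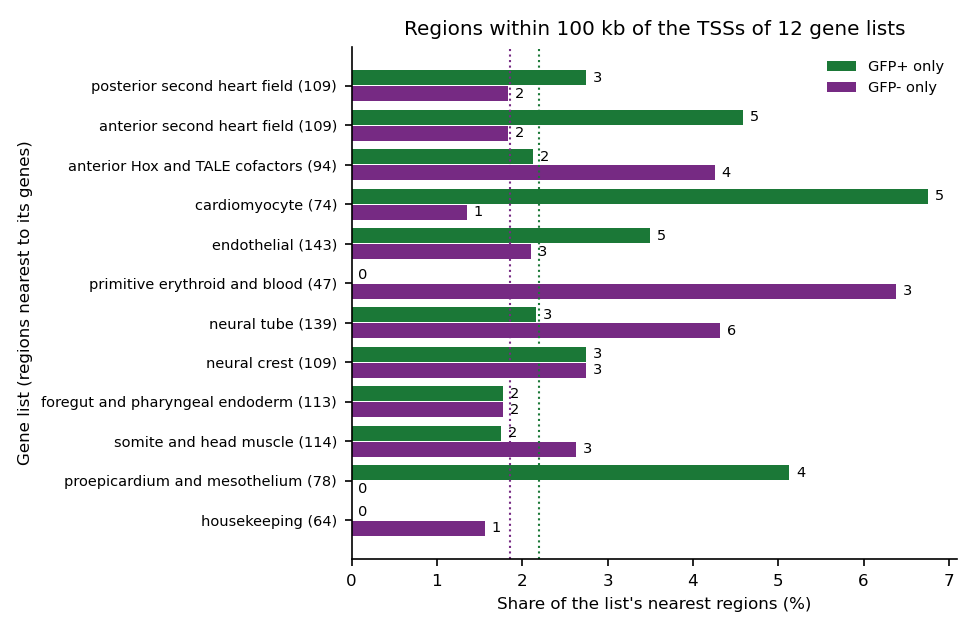
Share of regions nearest to the genes of 12 lists (y axis, number of regions in brackets) that were GFP+ only (green) or GFP- only (purple), as a percent on the x axis, with the count beside each bar. Dotted lines give the same share over all genes, 2.19% and 1.86%. Bars rest on 0 to 6 regions.

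Genes with the most class regions nearest to their TSS were led in part by repeated sequence. They were picked for these counts, and over all genes 2.19% of such regions were GFP+ only and 1.86% were GFP- only. Rgs3, which encodes a regulator of G-protein signalling, had 5 GFP+ only and 0 GFP- only among 20 regions, 4 of the 5 in single-copy sequence. Plxna2, a semaphorin receptor gene, had 4 and 0 of 21, and Rbpms, which encodes an RNA-binding protein of cardiac and smooth muscle, 4 and 0 of 19, all of them in single-copy sequence. On the GFP- side Gm3558 and 2610005L07Rik had the most, 5 of 44 regions each, with none of these in single-copy sequence. Mtcl1 had 4 of 23 regions and Cwc22 4 of 43, against 1 GFP+ only region each, and Spopl had 3 of 7 and none GFP+ only. Gm21119 was among the leaders of both classes, with 6 GFP+ only and 4 GFP- only of 93, and neither set had a single-copy region.

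In percentage points, SOX was the string whose share differed most between the classes. In distal, single-copy regions, ACAAAG or its complement within 100 bp of the summit occurred in 500 of 2085 GFP- only regions (24.0%, 95% Wilson interval 22.2 to 25.9). It occurred in 299 of 2307 GFP+ only regions (12.96%, 11.7 to 14.4), while the 4 mixed pairs ranged from 12.98% to 16.02% and regions in all 4 lists had 15.04%. The GFP- only share lay above every mixed pair, and the GFP+ only share just under the lowest of them. Before the limit to distal single-copy sequence the shares were 19.96% for GFP- only, 11.9% for GFP+ only and 13.2% for all merged regions. SOX factors bind this string, and members of the family act in neural progenitors, neural crest, endoderm and endothelium. The string alone does not tell which factor, if any, binds there, or in which cell type.

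Base composition moved with this difference, since median GC within the windows of all members was 51.7% in GFP- only and 54.2% in GFP+ only regions. Within windows of 45 to 55% GC the SOX share was 29.7% of 960 GFP- only, 16.6% of 1083 GFP+ only and 19.6% of 2436 mixed-pair regions. In windows of 55 to 70% GC it was 13.7%, 9.35% and 9.38%, and in those of 30 to 45% it was 33.2%, 17.1% and 25.2%. The order of GFP- only above GFP+ only thus held in each band. The 2 classes were also apart in the octamer ATTTGCAT of POU factors, at 1.82% of GFP- only and 0.520% of GFP+ only against 0.748% to 1.13% in the mixed pairs, though this rests on 38 and 12 regions.

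HOX-PBX strings were more frequent in both classes than in the mixed pairs, and about equally so. TGATNNAT occurred in 10.7% of GFP+ only (9.51 to 12.03) and in 11.7% of GFP- only regions (10.3 to 13.1), against 5.29% to 7.54% in the mixed pairs. Without the limit to distal single-copy sequence it occurred in 6.57% of all merged regions. The 2 intervals overlap, and the order of the classes changed with base composition. In windows of 30 to 45% GC the shares were 22.5% of GFP+ only and 25.7% of GFP- only regions, in those of 45 to 55% they were 15.2% and 12.9%, and in those of 55 to 70% they were 5.01% and 4.38%. GATA strings were also above the mixed pairs in both classes, at 8.37% and 8.15% against 4.80% to 6.38%. Toward GFP+, TEAD strings occurred in 17.1% of GFP+ only (15.6 to 18.7) and 13.7% of GFP- only regions (12.3 to 15.2), with 11.6% to 12.5% in the mixed pairs, and MEIS strings in 20.4% and 17.9%, with 14.5% to 18.1% in the mixed pairs and with intervals that overlap between the classes. TEAD factors are the DNA-binding partners of YAP. The CTCF motif was rarer in GFP- only regions, at 2.35% (1.78 to 3.09), than in GFP+ only regions at 5.29% (4.45 to 6.28) and the mixed pairs at 3.95% to 5.79%. Where the other population held no deposited peak, the CTCF shares were 1.26% of GFP- only and 3.55% of GFP+ only regions, both under the mixed pairs.

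For the other strings the 95% intervals of the classes overlapped. Shares in GFP+ only and GFP- only regions were 4.90% and 5.995% for HOX (TTTATNG), 4.85% and 3.74% for TBX (AGGTGTG), and 9.36% and 8.78% for NKX2 (TNAAGTG). The shares were 2.73% and 2.398% for FOX (TGTTTAC), 10.1% and 9.11% for ETS (CAGGAAG), and 15.9% and 16.3% for the nuclear receptor string AGGTCA. The E-box string CAGCTG differed by less than 1 percentage point between the classes, and so did the related string CATCTG, the homeobox string TAATTA and the RUNX string TGTGGTT.

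**Figure D3:**
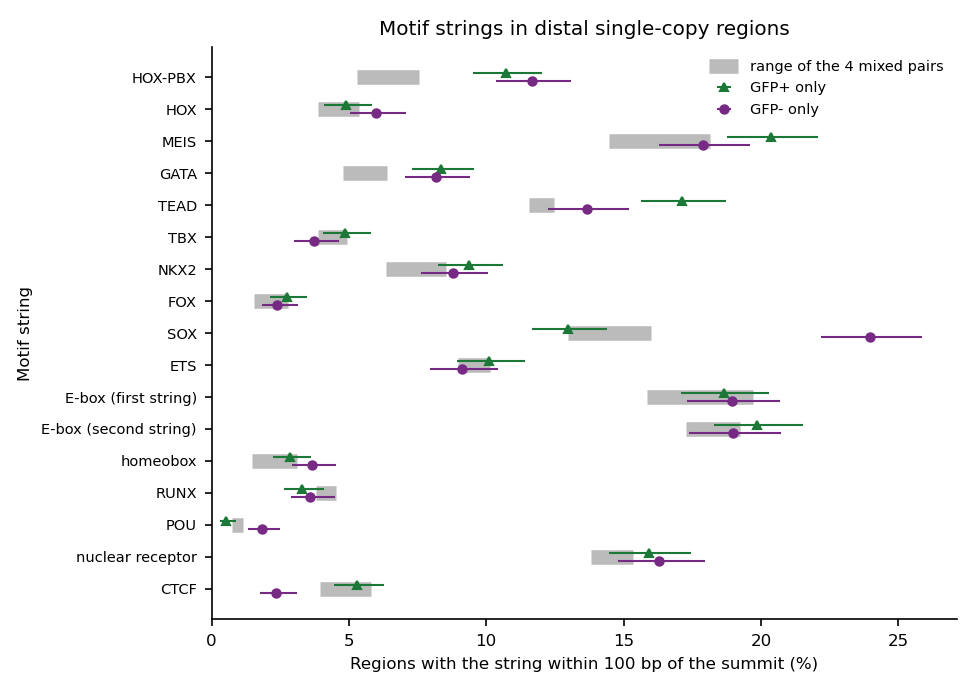
Share of distal single-copy regions with each of 17 motif strings within 100 bp of the summit (x axis, percent), for GFP+ only (green triangles, n = 2307) and GFP- only regions (purple circles, n = 2085) with 95% Wilson intervals, which cover counting error only. Grey bars span the 4 mixed library pairs. The SOX share of 24.0% in GFP- only regions lies outside both the grey bar and the GFP+ only interval, whereas the HOX-PBX shares of the classes overlap.

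Shared regions were compared by their rank of fold enrichment within each library, over the 27251 regions in all 4 lists. No region passed an adjusted p under 0.05 in either direction (0% called, limma on normal scores of the ranks with Benjamini-Hochberg adjustment). The smallest adjusted p was 0.208, and 961 regions ranked higher in GFP+ and 1158 higher in GFP- at an unadjusted p under 0.05, together 7.78%. Without GFP- 2, 1 region passed toward GFP+ and 2 toward GFP-, and without GFP+ 4, 1 passed toward GFP-. Spearman correlation of fold enrichment across these regions was 0.843 between GFP- 1 and GFP- 2 and 0.831 between GFP+ 3 and GFP+ 4, and 0.799 to 0.829 between populations. Those coefficients describe regions that share sequence and mappability and are not tests over samples. Both GFP+ libraries ranked above both GFP- libraries at 5293 regions (19.4%), and both GFP- above both GFP+ at 4965 (18.2%). Were the libraries interchangeable, 1 or the other of these orders would have a probability of 0.333 at a region, the exact permutation value for 2 against 2. The counts are thus no measure of how many regions differ between the populations.

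Promoters and distal regions moved apart in this ranking. Among the 11789 promoter regions, 2844 (24.1%) had both GFP+ ranks above both GFP- ranks and 1406 (11.9%) the reverse, with a median difference in normal score of 0.0843 (GFP+ minus GFP-). Among the 15462 distal regions the counts were 2449 (15.8%) and 3559 (23.0%), with a median of -0.0545. Ranks of a gene's promoter are therefore read below against the promoter median. In distal single-copy regions of all 4 lists, the SOX string occurred in 324 of 1581 regions ranked above in GFP- (20.5%), in 127 of 1190 ranked above in GFP+ (10.7%) and in 14.2% of those whose ranks overlapped, with median GC of 50.7%, 58.7% and 55.2%.

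None of the listed promoters passed the adjusted threshold, and the largest differences in each direction were those of Sox2 and Sox9 toward GFP- and of Prdm1 and Lhx2 toward GFP+. Sox2, a factor of neural progenitors and foregut, ranked in the top 57.4% of regions in GFP- 1 and 70.8% in GFP- 2, but 92.7% in GFP+ 3 and 98.6% in GFP+ 4. The difference in normal score was -1.45 (SE 0.464, adjusted p = 0.461). Sox9, a factor of neural crest and endoderm, stood at 64.4% and 76.8% in GFP- against 98.7% and 80.3% in GFP+, a difference of -0.987 (SE 0.511, adjusted p = 0.675). Away from its promoter, Sox9 had a GFP+ only region 26.8 kb from the TSS (chr11:112755228-112755427). Fold enrichment there was 3.31 in GFP+ 3 and 3.50 in GFP+ 4, with no deposited peak in either GFP- list. The Prdm1 promoter, of a repressor expressed in SHF and pharyngeal progenitors, stood at 65.4% and 55.6% in GFP- and at 24.9% in each GFP+ library, a difference of 0.946 (SE 0.311, adjusted p = 0.480). For Lhx2 the ranks were 73.6% and 83.4% against 53.1% and 37.5%, with a difference of 0.921 (SE 0.400, adjusted p = 0.606). At each of these 4 the populations did not overlap, but 24.1% of all promoter regions had that order toward GFP+ and 11.9% toward GFP-.

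By list, the counts below are to be read beside the 24.1% and 11.9% of all promoter regions, and no list was tested. Of 9 posterior SHF promoters in all 4 lists, 5 had both GFP+ ranks above both GFP- ranks and 1 the reverse, with a median difference of 0.345. The 5 included Nr2f2, Sema3c, Tbx18 and Aldh1a2, the gene of the retinoic acid-synthesizing enzyme, and the reverse was Osr1, a posterior SHF factor that ranked at 77.1% and 69.8% in GFP- against 86.2% and 97.2% in GFP+. For proepicardium and mesothelium 4 of 6 were above in GFP+ and 0 in GFP-, with a median of 0.341, and 2 of the 4, Tbx18 and Aldh1a2, are those of the posterior list. The anterior SHF list had 3 of 8 above in GFP+ (Prdm1, Sema6d and Mef2c) and 0 in GFP-, with a median of 0.243, and the other 5 overlapped. Of 8 neural tube promoters 0 were above in GFP+ and 3 in GFP- (Sox2, Pax6 and Hes5), with a median of -0.588.

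The remaining lists had few promoters in all 4 lists. Anterior Hox genes and cofactors had 3 of 8 above in GFP+ (Hoxb4 and Meis1 among them) and 1 in GFP- (Hoxa4), with a median of 0.264. Medians were 0.215 for neural crest (5 promoters), 0.177 for cardiomyocyte (3), 0.325 for endothelial (2), -0.428 for foregut and pharyngeal endoderm (3) and -0.0459 for somite and head muscle (5). The blood list had Nfe2 alone, at 0.785, with both GFP+ ranks above both GFP- ranks, although Nfe2 also had a GFP- only promoter region. Housekeeping promoters, of which 1 of 11 was above in GFP+ and 0 in GFP-, had a median of 0.0886, next to the 0.0843 of all promoters.

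**Figure D4:**
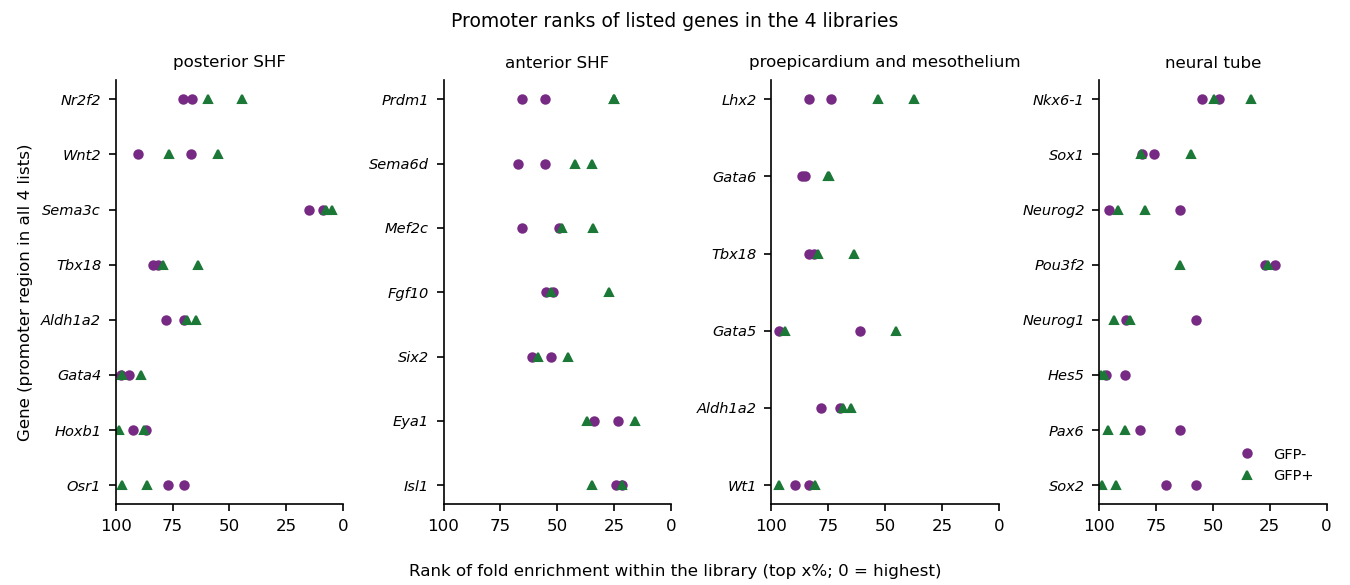
Rank of fold enrichment (x axis, top percent of the 27251 regions in all 4 lists, 0 the highest) of promoter regions of genes from 4 lists, with 1 row per gene shown, purple circles for GFP- 1 and GFP- 2 and green triangles for GFP+ 3 and GFP+ 4. The Sox2 points of GFP- lie at 57.4% and 70.8% and those of GFP+ at 92.7% and 98.6%, and the Prdm1 points run the other way. SHF is second heart field.

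The regions with the smallest p in the rank comparison were 5 promoters and 5 distal regions toward GFP+ and 10 distal regions toward GFP-, and repeated sequence was present on both sides. At the Hebp2 promoter (chr10:18545717-18546241) fold enrichment was 6.25 and 5.17 in GFP- 1 and GFP- 2 against 11.6 and 12.3 in GFP+ 3 and GFP+ 4, with an adjusted p of 0.320. At that of Syn1, a synapsin gene (chrX:20920579-20921286), it was 4.53 and 4.07 against 10.2 and 9.01. Promoters of A730017L22Rik, Actr6 and Kcnc1 were also among the 10, and the other 5 of the 10 were distal regions with 16 to 1565 copies of their 31-mers. Toward GFP-, 7 of the 10 regions had 2 to 1033 copies and 3 lay in single-copy sequence. That nearest to Alkal2 (chr12:30808406-30808671), at 75.8 kb, stood at 28.9 and 31.5 in GFP- against 19.3 and 21.3 in GFP+. The other two lay 349 kb from Tmem161b (chr13:84571079-84572059), at 10.1 and 10.2 in GFP- against 4.52 and 4.25 in GFP+, and 205 kb from Epha3 (chr16:64068985-64069646), at 10.6 and 9.77 against 3.61 and 4.50. All 3 had an adjusted p of 0.208, and the latter pair had a peak in Tomato- 7 and Tomato+ 8 and none in Tomato+ 6.

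Libraries of the Mef2c-Cre;RosatdT line, which had no role in defining the classes, were used as an independent readout. Mef2c-Cre recombines in the anterior SHF and its derivatives, and Tomato marks those cells. The study also describes Tomato cells at the venous pole, and a minor subset of progenitors labelled by both Hoxb1 and Tomato. Of GFP+ only regions, 40.3% had a peak in Tomato+ 6 (95% Wilson interval 38.7 to 42.0), 29.96% in Tomato+ 8 (28.4 to 31.5) and 36.2% in Tomato- 7 (34.6 to 37.9). Of GFP- only regions the shares were 25.6% (24.0 to 27.2), 35.2% (33.5 to 36.9) and 41.9% (40.2 to 43.7). The mixed pairs ranged from 30.4% to 34.4%, from 30.4% to 35.3% and from 38.6% to 45.2%.

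The 2 Tomato+ libraries therefore went opposite ways. Tomato+ 6 held GFP+ only regions more often than GFP- only regions and lay beyond the mixed pairs in both directions, while in Tomato+ 8, as in Tomato- 7, the order was reversed. With regions of at least 50% soft-masked bases left out, the Tomato+ 6 shares were 42.0% of GFP+ only and 19.3% of GFP- only regions, whereas those of Tomato+ 8 were nearly equal at 28.2% and 28.3%. Among regions with a -log10 q-value of at least 4 in both of their own lists, the Tomato+ 6 shares were 64.1% of 409 GFP+ only and 28.0% of 529 GFP- only regions, and those of Tomato+ 8 were 39.4% and 51.6%. The peak list of Tomato+ 6 carries a run name with YFP in its header, although its labels place it among the Tomato samples. Tomato+ 6 is the shallowest of the 7 libraries, at 52.3 M tags, but held 71127 peaks, against 64306 in Tomato+ 8 at 64.9 M tags. Whether depth has a part in the difference was not tested. In distal single-copy sequence the Tomato+ 6 shares were 41.0% and 20.7%, those of Tomato+ 8 were 26.1% and 29.7%, and those of Tomato- 7 were 31.8% and 35.8%. GFP- only regions with a SOX string had a Tomato+ 6 peak in 12.6% of 500 and those without it in 23.2% of 1585. For Tomato+ 8 these shares were 29.8% and 29.7%.

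**Figure D5:**
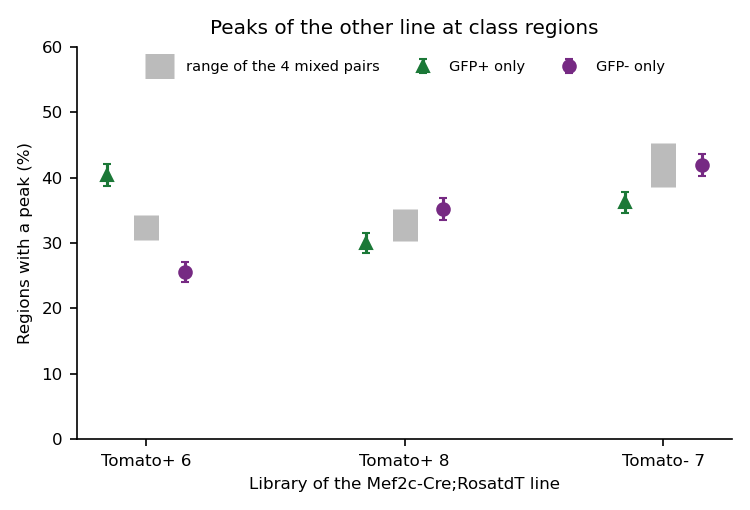
Share of GFP+ only (green triangles) and GFP- only regions (purple circles) with a peak in each library of the Mef2c-Cre;RosatdT line (y axis, percent, with 95% Wilson intervals for counting error). Grey bars span the 4 mixed pairs of GFP libraries. Tomato+ 6 has 40.3% and 25.6%, and the order is reversed in Tomato+ 8 (29.96% and 35.2%) and Tomato- 7 (36.2% and 41.9%).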

How the data were processed

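Per the labels and the study's methods, cells were sorted from pooled E9.5 SHF regions, and the authors aligned reads to GRCm38 (mm10), removed duplicates and blacklisted regions, and called peaks per library with MACS2 (version 2.1.1 in the submitters' processing notes). The deposited peak lists hold, for each summit, the pileup signal (coverage in tags), the fold enrichment as a ratio over the background lambda, and the -log10 p-value and -log10 q-value. The deposited values are not counts over a common set of regions, so no count model was used.

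1 row was kept per start-end interval (the summit with the smallest p), peaks with -log10 q of at least 2 were retained, and intervals were merged by 1 bp over the 4 Hoxb1-GFP lists. Tag totals were recovered from pileup and fold enrichment. Curated RefSeq transcripts of GRCm38.p6 (26180 genes) gave promoters (1000 bp upstream to 100 bp downstream) and nearest TSSs within 100 kb. Motif strings were searched on both strands within 100 bp of the summit, and single-copy means a median of 1 genomic copy of the 31-mers around it. Normal scores of within-library ranks of fold enrichment (highest value of a region) were tested with limma 3.58.1 (R 4.3.3, trended eBayes, Benjamini-Hochberg). The code of this fit was run on simulated data with planted shifts larger than any difference printed here. That run does not show whether smaller differences would be found. Shares carry 95% Wilson intervals, which cover counting error only. Python 3.11.15, pandas 2.3.3 and scipy 1.17.1 were used.

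Named genes were those of 12 lists (155 genes), the 10 genes per class with most nearest regions, the 5 strongest single-copy regions per class and the 10 regions per direction of smallest p, of which examples are given. Some listed genes are counted but not reported here by name. The members, lists and tests were chosen with earlier results of these data known. Alternatives were a q-value threshold of 4 on the -log10 scale, 30000 peaks per library, other overlaps, windows, ranks and repeat limits, and leaving out each library.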

Additional observations from a re-analysis of the deposited data

How the results depend on the processing

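The direction of the 2 class counts depended on the threshold. GFP+ only and GFP- only regions numbered 1462 and 1564 at a -log10 q-value of at least 4, 1309 and 1405 with the 30000 strongest peaks of each library, and 1212 and 1036 where the other population was required to hold no deposited peak. Leaving out 1 library gave 5496 to 31122 GFP+ only and 5135 to 28036 GFP- only regions, the upper values arising because a single list then defined the class. Regions in all 4 lists fell to 17488 with under 50% soft-masked bases and were 29377 to 29833 in 3 lists. The promoter shares of GFP+ only and GFP- only regions were 20.9% and 8.89% at the stricter q-value, 23.5% and 10.2% with 30000 peaks, 9.66% and 6.69% under the repeat limit, and 3.71% and 2.799% with no deposited peak in the other population, and 8.87% and 5.51% with 500 bp on either side of the TSS, so GFP+ only regions had the larger share in each of these 5 settings. Leaving out 1 library gave 3.52% to 12.2% and 3.68% to 8.25%, and the order turned without GFP+ 3 (4.29% and 6.93%) and without GFP+ 4 (3.52% and 8.25%). There 1 list defined GFP+ only regions and 2 lists GFP- only regions, so the shares do not compare like classes. The mirror settings, without GFP- 1 (10.3% and 3.68%) and without GFP- 2 (12.2% and 3.83%), have the same limit. Regions found in a single list of the 4 had a promoter share of 3.28%. The cause of the shifts was not tested. For ranks, 0 regions passed toward GFP+ and 1 toward GFP- when ranked by -log10 p (near Gm33347, adjusted p = 0.00126), and leaving out 1 library gave 0 to 1 and 0 to 2, the lone sample being assumed to vary like the other population. The smallest adjusted p over the alternatives ran from 0.000715 to 0.581.

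In alternatives chosen after seeing the data, the SOX share of GFP- only regions was 35.6% with -log10 q of at least 4 in both own lists and 22.1% with no deposited peak in the other population. HOX-PBX shares were 15.2% of GFP+ only and 17.8% of GFP- only regions in the former setting, and CTCF shares 3.55% and 1.26% in the latter. Tomato+ 6 held 64.1% and 31.1% of GFP+ only regions and 28.0% and 18.2% of GFP- only regions in these settings, and 19.3% of GFP- only regions under the repeat limit. Tomato+ 8 held 39.4%, 19.4% and 28.2% of GFP+ only and 51.6%, 26.2% and 28.3% of GFP- only regions in the 3 settings. No paired analysis was possible because the labels tie no GFP+ library to a GFP- library, their numbers all differ, and whether they share embryo pools is not given. Peak lists keep no counts below the threshold, so a missing peak limits accessibility only loosely.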

Other observations

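Within the distal single-copy regions found in all 4 lists, other strings also varied with the order of the ranks. The HOX-PBX string TGATNNAT occurred in 163 of 1581 regions ranked above in both GFP- libraries (10.3%) and in 68 of 1190 ranked above in both GFP+ libraries (5.71%), with 6.89% of the 4209 regions whose ranks overlapped. TEAD strings ran the other way, at 11.4% and 13.4%, and the motif of CTCF, an insulator protein, stood at 3.04% and 5.55%. Median GC was 50.7% and 58.7% in these sets, and its part in the differences was not tested. Tomato+ 6 held a peak at 77.4% of the regions ranked above in GFP- and at 89.5% of those ranked above in GFP+, whereas Tomato+ 8 held 88.6% and 88.2% and Tomato- 7 91.0% and 91.7%.

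On chromosome X, 342 of 1425 regions in all 4 lists (24.0%) were ranked above in both GFP- libraries and 205 (14.4%) above in both GFP+ libraries, against 18.2% and 19.4% over all chromosomes. Distal regions of all chromosomes had a similar split, at 23.0% and 15.8%, and so did regions in repeated sequence, at 23.0% and 15.1%. The sex of the pooled embryos is not given, and neither its part in this nor that of distal or repeated sequence was tested.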
